A study of Mus musculus with 14 samples.

Results

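The genes described here are 10 that mark the first steps of myeloid commitment: the transcription factor genes Cebpa, Cebpe, Spi1, Gfi1 and Irf8, the growth factor receptor genes Csf1r and Csf3r, and the granule enzyme genes Mpo, Elane and Prtn3. They were taken by symbol from 55450 genes measured by RNA sequencing in 14 libraries of long-term haematopoietic stem cells (LT-HSCs), the marrow cells that renew blood for life. All 10 were among the 16878 genes kept by the filter on low counts. Every library came from 5000 sorted cells of female C57BL/6 mice with the surface phenotype lineage-negative, Sca-1+, c-Kit+, CD48- and CD150+. After transplantation there were 3 Selp high-derived and 3 Selp low-derived libraries. Their cells descended from 1000 old Selp high or Selp low LT-HSCs and were collected at week 16 from lethally irradiated recipients that had been 10 to 16 weeks old, by a gate on the donor marker CD45.2 and not on P-selectin. Before transplantation there were 4 Selp high and 4 Selp low libraries, from 4 donor mice older than 24 months, parted by how much of the adhesion receptor P-selectin (gene Selp) the cells carried on their surface. Host age, residence in an irradiated host, time and any difference in handling all change between the stages and cannot be told apart.

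Myeloid commitment is steered by a small set of transcription factors. PU.1, the product of Spi1, and C/EBP-alpha, the product of Cebpa, open the granulocyte and monocyte programme. Gfi1 and C/EBP-epsilon then act on the neutrophil branch, and Irf8 on the monocyte and dendritic cell branch. The receptors for G-CSF (Csf3r) and M-CSF (Csf1r) carry the matching growth signals. Myeloperoxidase, neutrophil elastase and proteinase 3 are stored in the primary granules of promyelocytes, and their transcripts are also found at low levels in immature progenitors, which is known as priming.

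PU.1 is known to act on promoters of granule enzyme genes and of Csf3r, and 2 of these genes were called between the stages, so the 250 bases before the start of Csf3r and of the 3 enzyme genes are shown first. The sequences are RefSeq windows on GRCm38.p6, plus strand, at chr4:126024409-126024658 for Csf3r, chr10:79879417-79879666 for Prtn3, chr10:79886062-79886311 for Elane and chr11:87793534-87793783 for Mpo. Capitals mark GAGGAA, the core of a PU.1 site.
Csf3r: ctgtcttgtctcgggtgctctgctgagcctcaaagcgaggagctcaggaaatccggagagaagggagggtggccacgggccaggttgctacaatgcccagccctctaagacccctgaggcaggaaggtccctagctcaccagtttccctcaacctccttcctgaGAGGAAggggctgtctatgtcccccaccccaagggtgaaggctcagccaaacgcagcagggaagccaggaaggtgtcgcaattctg
Prtn3: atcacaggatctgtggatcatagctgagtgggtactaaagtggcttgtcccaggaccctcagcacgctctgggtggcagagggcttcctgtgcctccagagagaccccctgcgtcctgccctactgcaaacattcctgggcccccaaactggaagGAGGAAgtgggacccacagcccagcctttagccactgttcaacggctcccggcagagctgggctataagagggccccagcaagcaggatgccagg
Elane: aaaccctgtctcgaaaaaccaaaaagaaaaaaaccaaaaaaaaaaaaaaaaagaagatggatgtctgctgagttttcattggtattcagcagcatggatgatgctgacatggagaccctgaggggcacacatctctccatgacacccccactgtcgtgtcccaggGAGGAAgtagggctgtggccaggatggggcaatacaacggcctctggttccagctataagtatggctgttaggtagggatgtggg
Mpo: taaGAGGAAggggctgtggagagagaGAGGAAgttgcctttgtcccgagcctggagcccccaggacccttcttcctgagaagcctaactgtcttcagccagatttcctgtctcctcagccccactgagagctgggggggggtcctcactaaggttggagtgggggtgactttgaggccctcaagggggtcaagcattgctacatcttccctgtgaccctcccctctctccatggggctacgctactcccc

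In Csf3r, Prtn3 and Elane the hexamer began at -86, -95 and -85 from the first base of the gene, on the gene's own strand. In Mpo it occurred at -247 and again at -224. RefSeq windows reaching 250 bases before and 50 bases after the start were found for 7 of the 10 genes, as 9 windows because some genes have more than 1 start, and were not found for Cebpe, Spi1 and Csf1r. On either strand, GAGGAA occurred in 4 of the 9 windows, against 28.3% of all 32851 windows in the table. The C/EBP motif TTNCNNAA occurred in 1 of 9 (Gfi1) and in 40.7% of all windows, the MYB motif CAACTG in 1 of 9 (Cebpa) and in 13.7%, and the RUNX motif TGTGGT in 0 of 9 and in 16.8%. Matches of different motifs can overlap, and none did in these windows. These are matches of letters only. In each of the 4 genes printed, the GENCODE gene begins upstream of the RefSeq start used for the window.

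The reads counted on genes numbered 22374794 to 38216775 a library. Levels are given as CPM, which is counts scaled to a common library size, or as RPKM, which also divides by exon length and is the scale for comparing genes with each other. All 12 LT-HSC marker genes were detected, with a summed level of 3617 to 4854 CPM after and 5185 to 6146 CPM before transplantation. Between these stages 7 of the 12 were called lower and 0 higher, where 14.5% of all genes were called lower, and the part of this in the changes described below was not tested. Transcripts of mature cells were present too. The summed level of 18 neutrophil markers was 369 to 2125 CPM in Selp high-derived, 1496 to 12566 CPM in Selp low-derived, 293 to 20266 CPM for Selp high and 2136 to 15144 CPM for Selp low libraries. It was highest in the Selp high (20266 CPM) and Selp low library (15144 CPM) of mouse 4, followed by Selp low-derived replicate 2 (12566 CPM), and these libraries are named beside the results they touch. Mouse numbers are the replicate numbers before transplantation, taken as mice because libraries of the same number deviated together. Ly6g, a neutrophil surface marker, ran between 0.391 and 54.9 CPM, and Stfa2 and Stfa3 did not pass 0.381 CPM in any library. In such pooled cells, more cells of a type and more RNA per cell cannot be told apart.

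Averaged per length over all libraries, the granule protease genes were the most abundant of the 10, although in Selp high-derived libraries Spi1 (46.9 RPKM) stood slightly above Elane (44.8 RPKM). Over the 14 libraries Prtn3 averaged 186 RPKM and Elane 120 RPKM. Csf3r (49.1 RPKM), Spi1 (41.7 RPKM) and Mpo (40.9 RPKM) followed, with ranges of 31.1 to 67.1, 19.3 to 53.1 and 2.28 to 140 RPKM that overlapped. Gfi1 averaged 17.5 RPKM. Csf1r (3.71 RPKM), Irf8 (3.11 RPKM) and Cebpe (2.77 RPKM) again overlapped and changed order between groups, and Cebpa was lowest at 0.518 RPKM. Among the protein-coding genes kept by the filter, Prtn3 stood at percentile 99.1 in both groups before transplantation, while Cebpa stood at percentiles 10.9 to 18 across the 4 groups.

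The comparison of the stages asked how these genes stood in LT-HSCs regenerated in young recipients, set against the old LT-HSCs that had been transplanted. Prtn3, the gene of proteinase 3, was 0.409 times its earlier level after transplantation, and Csf3r, the G-CSF receptor gene, 0.7 times. Spi1, the PU.1 gene, was 1.31 times its earlier level, a call that was lost on leaving out most single libraries. The other 7 genes did not pass the test. A gene was called at an edgeR quasi-likelihood adjusted p under 0.05 over all 16878 genes. By that rule 4644 genes, or 27.5%, were called between the stages, 13% higher and 14.5% lower after transplantation. Of the 10 genes described here 3 were called, 1 higher and 2 lower, a share near that background. Their median log2 change was -0.47 and that of all genes -0.01. The count was also 3 without both libraries of mouse 4, and 2 with the counts before transplantation summed per mouse.

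**Figure D1:**
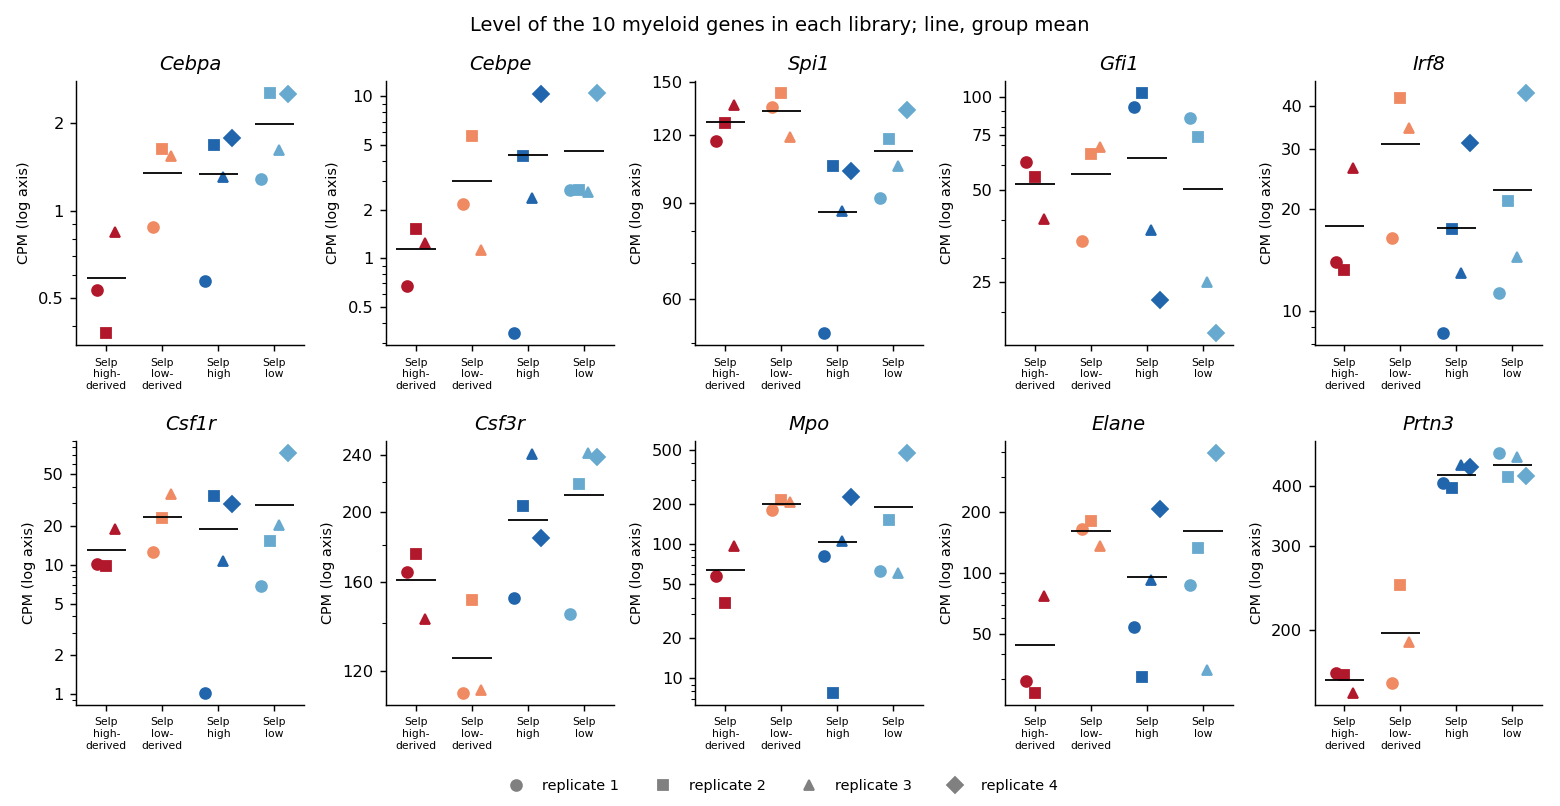
Level of each of the 10 genes in every library, in CPM on a log axis. Marker shapes give the replicate number and black lines the group means. Prtn3 lies at 148 to 248 CPM in the 6 libraries after transplantation and at 396 to 469 CPM in the 8 before it, while Mpo and Elane spread widely within most groups.

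Among the transcription factors, Spi1 lies on chromosome 2 (91082390 to 91115756, plus strand, GRCm38). Spi1 was at 117, 126 and 136 CPM in Selp high-derived and 135, 143 and 119 CPM in Selp low-derived libraries, against 52, 105, 86.9 and 103 CPM for Selp high and 92, 118, 105 and 133 CPM for Selp low libraries. The stages overlapped, since Selp low replicates 2 and 4 reached the range seen after transplantation. The mean was 129 ± 10.6 CPM after (SD, n = 6) and 99.6 ± 24.1 CPM before transplantation (SD, n = 8). Its log2 change of 0.39 ± 0.14 (SE) had an edgeR adjusted p of 0.0488. The call was lost under 4 of 9 other settings, with adjusted p of 0.0816 when counts were summed per mouse, and on leaving out 10 of the 14 libraries in turn, with adjusted p up to 0.123 without Selp high-derived replicate 3.

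Cebpa (chromosome 7, 35119293 to 35121928, plus strand) and Cebpe (chromosome 14, 54710360 to 54712174, minus strand) had low counts. Cebpa had 0.533, 0.378 and 0.842 CPM in Selp high-derived and 0.879, 1.63 and 1.54 CPM in Selp low-derived libraries, against 0.574, 1.68, 1.31 and 1.78 CPM for Selp high and 1.28, 2.54, 1.62 and 2.53 CPM for Selp low libraries. All 3 Selp high-derived libraries lay below all 3 Selp low-derived ones, but by less than counting error. The nearest libraries were Selp high-derived replicate 3, on 25 reads, and Selp low-derived replicate 1, on 24 reads. Their exact 95% Poisson intervals, which cover counting error only, are 16.2 to 36.9 and 15.4 to 35.7 reads. The lowest Cebpa value stood on 9 reads, with an interval of 4.12 to 17.1 reads. The stage change of Cebpa was -0.87 ± 0.33 on the log2 scale (edgeR adjusted p = 0.0597), and DESeq2 gave an adjusted p of 0.0439. An antisense transcript, Gm45091, shares 51 exonic bases with Cebpa (1.93% of its exons) and was itself at 0.356 to 1.07 CPM.

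Cebpe, needed for the late granules of neutrophils, had 0.676, 1.51 and 1.25 CPM in Selp high-derived and 2.16, 5.67 and 1.12 CPM in Selp low-derived libraries, against 0.344, 4.3, 2.37 and 10.4 CPM for Selp high and 2.63, 2.65, 2.55 and 10.5 CPM for Selp low libraries. Its 3 highest values were those of Selp low-derived replicate 2 and both libraries of mouse 4, the same 3 that led the neutrophil marker sum, and its lowest was that of Selp high replicate 1, which also had the lowest sum (293 CPM). The stage change was -1.27 ± 0.62 on the log2 scale (edgeR adjusted p = 0.145). The part of neutrophil transcripts in the level of Cebpe was not tested.

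Gfi1 (chromosome 5, 107716657 to 107726036, minus strand) is a repressor gene that acts in neutrophil development and also restrains the cycling of stem cells. Before transplantation it differed between the replicate numbers, taken as mice, more than between the sorted fractions. In Selp high libraries it was at 92.6, 103, 36.9 and 21.9 CPM for mice 1 to 4, and in Selp low libraries of the same mice at 85.4, 74.2, 25 and 17.1 CPM. In both fractions mice 1 and 2 were high and mice 3 and 4 low, with no overlap between these pairs of mice. Within each mouse the Selp high fraction had the higher level, in 4 of 4 mice. After transplantation Gfi1 was at 61.3, 55.1 and 40.2 CPM in Selp high-derived and 34.1, 65.2 and 68.8 CPM in Selp low-derived libraries, all within the range before it. The stage change was -0.07 ± 0.43 on the log2 scale (edgeR adjusted p = 0.927).

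Irf8 (chromosome 8, 120736358 to 120756694, plus strand), the monocyte and dendritic cell regulator, had 13.9, 13.2 and 26.3 CPM in Selp high-derived and 16.4, 42.2 and 34.5 CPM in Selp low-derived libraries, against 8.6, 17.4, 12.9 and 31.1 CPM for Selp high and 11.3, 21, 14.4 and 43.7 CPM for Selp low libraries. The groups overlapped throughout, and Selp low-derived replicates 2 and 3 with both libraries of mouse 4 held the 4 highest levels. Its stage change was 0.24 ± 0.36 on the log2 scale (edgeR adjusted p = 0.659).

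Of the receptors, Csf3r (chromosome 4, 126024550 to 126044440, plus strand) was well expressed in every library. It was at 165, 175 and 142 CPM in Selp high-derived and 112, 151 and 113 CPM in Selp low-derived libraries, against 152, 204, 241 and 184 CPM for Selp high and 144, 219, 242 and 239 CPM for Selp low libraries. Both libraries of mouse 1 lay within the range seen after transplantation, and the other 6 before transplantation lay above it. The mean was 143 ± 26.2 CPM after (SD, n = 6) and 203 ± 39.6 CPM before transplantation (SD, n = 8). The log2 change was -0.52 ± 0.13 (edgeR adjusted p = 0.0103). It remained called under every alternative setting tried, including leaving out each library, with adjusted p from 0.00151 to 0.0316.

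Csf1r (chromosome 18, 61100598 to 61132149, plus strand), the M-CSF receptor gene of the monocyte lineage, was scarcer and more variable. It had 10.2, 9.79 and 18.9 CPM in Selp high-derived and 12.6, 22.7 and 34.8 CPM in Selp low-derived libraries, against 1.03, 34.1, 10.7 and 29.4 CPM for Selp high and 6.81, 15.3, 20.2 and 73 CPM for Selp low libraries. The highest level was 70.7 times the lowest, which was that of Selp high replicate 1, with 27 reads. The coefficient of variation over the 14 libraries was 83.9%, against 85.6% for Mpo and 95.5% for Cebpe. Its stage change was -0.42 ± 0.67 on the log2 scale (edgeR adjusted p = 0.689), and 0.25 without mouse 4. Hmgxb3, on the other strand, shares 873 exonic bases with Csf1r, or 15.1% of its exons, and was at 43.5 to 72 CPM. Without strand, reads on these shared bases fall in the ambiguous class, which was left out. With the strand columns summed, the stage change of Csf1r was -0.18 ± 0.36. In that sum each read on the shared bases counts for both genes, so it also holds reads of Hmgxb3, which changed by 0.09 ± 0.13.

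Prtn3 (chromosome 10, 79874476 to 79883174, plus strand) had the smallest p of the 10 genes between the stages. It was at 163, 161 and 148 CPM in Selp high-derived and 155, 248 and 189 CPM in Selp low-derived libraries, against 406, 396, 443 and 438 CPM for Selp high and 469, 418, 460 and 419 CPM for Selp low libraries. Every library after transplantation lay below every library before it. The mean was 178 ± 37.3 CPM after (SD, n = 6) and 431 ± 25.8 CPM before transplantation (SD, n = 8). The log2 change was -1.29 ± 0.09 (edgeR adjusted p = 7.46e-07), which is a fold of 0.409 with a 95% interval of 0.356 to 0.47 and ranked 21 by p among all genes. Plppr3, on the opposite strand, shares 159 exonic bases with Prtn3 (9.18% of its exons). Reads on these bases were likewise left out as ambiguous. Plppr3 was at 99.5 to 195 CPM and changed by -0.36 ± 0.09 on the log2 scale (edgeR adjusted p = 0.00605), a smaller difference in the same direction.

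Elane (chromosome 10, 79886247 to 79888215, plus strand) lies downstream of Prtn3 on the same strand, and the deviations of the pair from their group means were uncorrelated over the 14 libraries (Pearson r = -0.06, a description with no test). Elane was at 29.3, 25.6 and 77.3 CPM in Selp high-derived and 165, 182 and 137 CPM in Selp low-derived libraries, against 54.1, 30.5, 92.4 and 208 CPM for Selp high and 87, 134, 33.2 and 395 CPM for Selp low libraries. Its 3 levels in Selp high-derived libraries lay below the 3 in Selp low-derived ones, while the stages overlapped widely. The stage change was -0.57 ± 0.58 on the log2 scale (edgeR adjusted p = 0.505), and 0.25 without mouse 4.

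Mpo (chromosome 11, 87793581 to 87804413, plus strand), which makes hypochlorous acid in phagocytes, was at 58, 36.5 and 97.1 CPM in Selp high-derived and 180, 213 and 206 CPM in Selp low-derived libraries, against 81.1, 7.81, 105 and 223 CPM for Selp high and 62.5, 151, 61.3 and 479 CPM for Selp low libraries. The lowest and the highest of the 14 were both from old donors, Selp high replicate 2 and Selp low replicate 4. Its stage change was -0.31 ± 0.66 on the log2 scale (edgeR adjusted p = 0.767), and 0.56 without mouse 4. The antisense transcript Gm11505 shares 512 exonic bases with Mpo, or 15% of its exons, and did not pass 0.126 CPM. Reads on these bases fall in the ambiguous class and were left out, while RPKM divides by all exons of Mpo. With the strand columns summed, the stage change of Mpo was -0.33 ± 0.66.

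The 3 granule enzyme genes differed in how steady they were. Before transplantation the coefficient of variation over 8 libraries was 5.99% for Prtn3, 94.4% for Elane and 102% for Mpo. After transplantation, over 6 libraries, it was 21% for Prtn3, 66.4% for Elane and 59% for Mpo. These values pool groups, and the means of Elane and Mpo differed between the groups after transplantation. Within the Selp high-derived group the values were 5.28%, 65.3% and 48%. Within the Selp low-derived group the order was reversed, at 23.8% for Prtn3, 14% for Elane and 8.84% for Mpo. The ratio of Prtn3 to Elane in RPKM ran from 0.534 to 3.57 after and from 0.604 to 7.87 before transplantation. In RPKM Elane exceeded Prtn3 in all 3 Selp low-derived libraries and in Selp low replicate 4, and in no other library. This rests on the exon lengths used, since in CPM Elane was higher only in Selp low-derived replicate 1 (165 against 155 CPM). Elane and Mpo moved more closely together, with a ratio of 1.76 to 4.85 in 13 libraries and 13.6 in Selp high replicate 2, where Mpo was at its lowest.

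**Figure D2:**
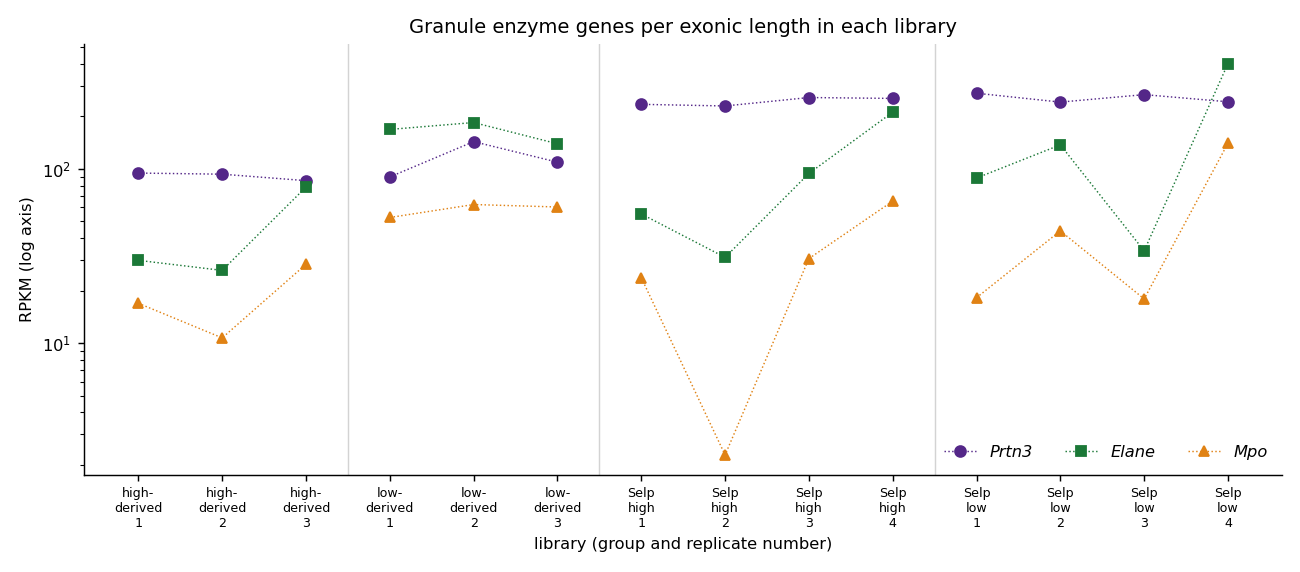
RPKM of Prtn3, Elane and Mpo in each of the 14 libraries, on a log axis, with dotted lines joining the libraries of a group. Prtn3 lies at 85.4 to 143 RPKM after and 229 to 271 RPKM before transplantation. Over the pooled libraries of each stage it varies less than Elane and Mpo, but within the Selp low-derived group it varies more. Elane and Mpo rise and fall together from library to library.

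Each input was also compared with its own descendants. For the Selp low input, 11.5% of all genes were called (5.02% higher and 6.47% lower) and 2 of the 10 genes, both lower after transplantation, which were Prtn3 (log2 change -1.16 ± 0.13, edgeR adjusted p = 0.000197) and Csf3r (-0.75 ± 0.19, adjusted p = 0.0202). For the Selp high input, 15.4% of all genes were called (7.74% higher and 7.63% lower) and 1 of the 10, Prtn3, which was lower, with a log2 change of -1.42 ± 0.13 (edgeR adjusted p = 2.89e-05). Csf3r had -0.28 ± 0.19 there (edgeR adjusted p = 0.351). The difference between the inputs in the change of Csf3r was 0.47 ± 0.27 (edgeR adjusted p = 0.882), so the inputs were not shown to differ. The call of Csf3r in the Selp low input was lost without Selp low replicate 3 (adjusted p = 0.0594), Selp low-derived replicate 1 (0.0941) or Selp low-derived replicate 3 (0.0774). Spi1 differed by 0.24 ± 0.20 in the Selp low and 0.54 ± 0.20 in the Selp high input (edgeR adjusted p = 0.479 and 0.0779). These comparisons share libraries with the comparison of the stages.

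The comparison after transplantation asked whether descendants of Selp high cells carried different myeloid transcripts than descendants of Selp low cells. Elane, Mpo and Cebpa were lower in every Selp high-derived library than in any Selp low-derived library, Cebpa only by 0.842 against 0.879 CPM. The share of all genes that separate in this way was not counted, so the separation is a description and not a result about these genes. None of the 10 genes was called, and edgeR called 0 of 16878 genes, or 0%. Unadjusted p was under 0.05 for 770 genes, and DESeq2 called 25. The log2 difference was -1.87 ± 0.89 for Elane, a fold of 0.274 with a 95% interval of 0.0705 to 1.06. For Mpo it was -1.64 ± 1.01, a fold of 0.32 with an interval of 0.0679 to 1.51. For Cebpa it was -1.19 ± 0.50, a fold of 0.437 with an interval of 0.21 to 0.911. These errors share 1 estimate of the spread with the libraries before transplantation, where Elane and Mpo varied more. Fitted on the 6 libraries after transplantation alone, the differences were -1.89 ± 0.38 for Elane (edgeR adjusted p = 0.592), -1.66 ± 0.30 for Mpo (0.408) and -1.22 ± 0.55 for Cebpa (0.965), and 0 genes were called.

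Of the other genes, Cebpe had -1.38 ± 0.93, Csf1r -0.85 ± 1.02, Irf8 -0.80 ± 0.55 and Prtn3 -0.33 ± 0.14, while Gfi1 (-0.10 ± 0.66) and Spi1 (-0.06 ± 0.21) lay near 0. Csf3r ran the other way, at 0.36 ± 0.20. In all, 9 of the 10 values were below 0, with a median of -0.82 against 0.01 for all genes, and the edgeR adjusted p ran from 0.983 to 1. Marker sums differed between these groups as well. Monocyte and macrophage markers summed to 124 to 189 CPM in Selp high-derived and 233 to 362 CPM in Selp low-derived libraries, and LT-HSC markers to 4497 to 4854 CPM in Selp high-derived and 3617 to 4350 CPM in Selp low-derived libraries, without overlap for either list. Of 14 secondary and tertiary granule genes, 14 had values below 0, with a median of -1.44. Without Selp low-derived replicate 2, one of the libraries high in neutrophil markers, the values were -0.52 for Cebpe, -0.51 for Irf8 and -0.13 for Prtn3. The part of these markers and of mature neutrophil transcripts in the differences of Elane, Mpo and Cebpa was not tested. In Selp low-derived replicates 1, 2 and 3 the neutrophil sum was 2736, 12566 and 1496 CPM. The monocyte and macrophage sum was 233, 362 and 354 CPM in these libraries. Elane was at 165, 182 and 137 CPM there, and Mpo at 180, 213 and 206 CPM.

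**Figure D3:**
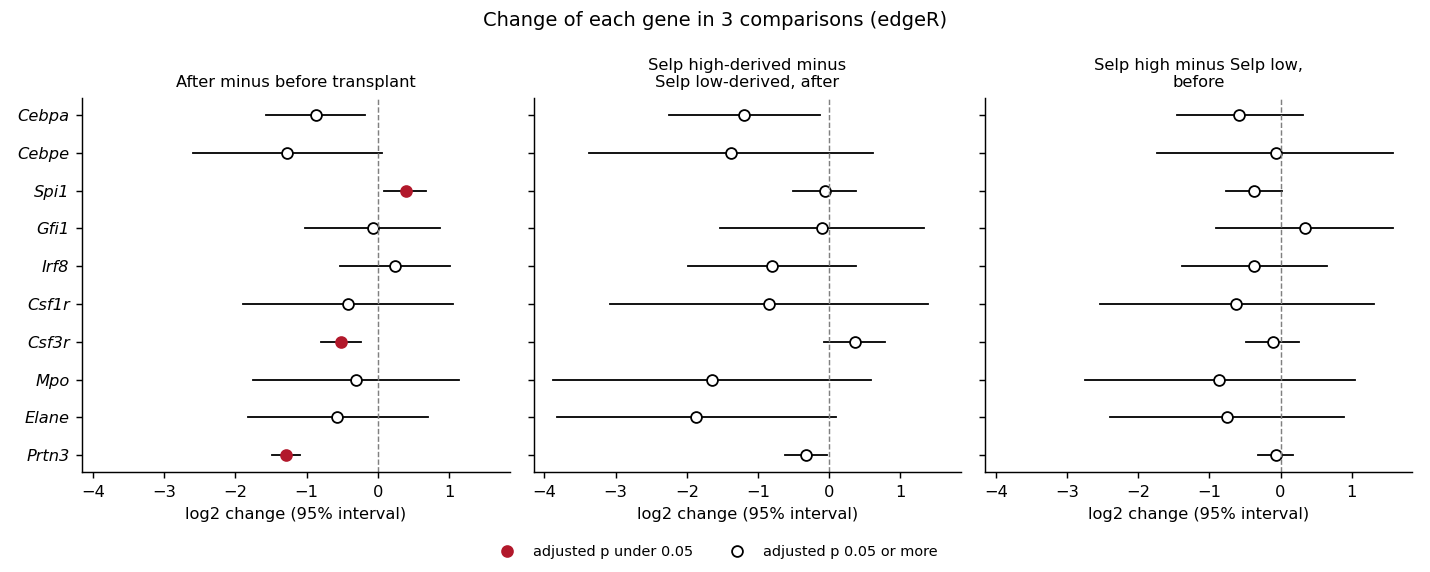
Log2 change of each of the 10 genes with its 95% interval in 3 edgeR comparisons, with filled points at an adjusted p under 0.05. Prtn3, Csf3r and Spi1 are filled in the comparison of the stages, and no point is filled in the comparisons by Selp.

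Before transplantation the question was whether myeloid priming differs between old LT-HSCs rich and poor in P-selectin. EdgeR called 0 of 16878 genes, or 0%, and so none of the 10. Unadjusted p was under 0.05 for 860 genes, and DESeq2 called 11. Again 9 of the 10 values were below 0, with a median of -0.37 against -0.02 for all genes. The groups overlapped for every gene. Libraries of the same replicate number were taken as both fractions of the same mouse. Cebpa, Spi1 and Irf8 were lower in the Selp high fraction in 4 of 4 mice, while Gfi1 was higher in 4 of 4. The share of all genes that ran the same way in 4 of 4 mice was not counted, so these counts are a description only.

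In this comparison Spi1 averaged 86.9 ± 24.7 CPM for Selp high and 112 ± 17.7 CPM for Selp low libraries (SD, n = 4 each), a log2 difference of -0.37 ± 0.18 (edgeR adjusted p = 0.959). Cebpa had -0.58 ± 0.41, Irf8 -0.37 ± 0.47 and Gfi1 0.34 ± 0.57. The granule enzyme genes had -0.86 ± 0.86 (Mpo), -0.75 ± 0.75 (Elane) and -0.07 ± 0.12 (Prtn3). For Prtn3 the 95% interval of the fold was 0.799 to 1.14. Csf1r had -0.62 ± 0.88, Csf3r -0.11 ± 0.17 and Cebpe -0.07 ± 0.77. The edgeR adjusted p of the 10 ran from 0.959 to 0.996. These errors take both fractions of a mouse as separate libraries, so they include the differences between mice. With mouse as a replicate block in the fit of the libraries before transplantation, 4 genes were called, and none of the 10. This block fit gave 0.39 ± 0.10 for Gfi1, -0.39 ± 0.11 for Spi1, -0.32 ± 0.12 for Irf8 and -0.61 ± 0.29 for Cebpa. Their adjusted p in the block fit was 0.164, 0.178, 0.278 and 0.37. For Mpo the error was larger than without the block, at -0.82 ± 1.12.

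Single libraries moved these differences. Selp high replicate 1 had the lowest level of all 14 libraries for Cebpe, Spi1, Irf8 and Csf1r, and its summed neutrophil (293 CPM), monocyte (38.9 CPM) and mast cell, basophil and eosinophil markers (4.02 CPM) were also the lowest of all. Without it the Spi1 difference was -0.19 and the Cebpa difference -0.33. Without Selp low replicate 4, where Mpo, Elane, Irf8, Csf1r and Cebpe were at their highest, the differences of these 5 genes were 0.19, 0.18, 0.17, 0.42 and 0.74, the opposite sign. Without both libraries of mouse 4, which keeps the mice paired, they were -0.51, -0.53, -0.26, 0.12 and -0.16, so that Csf1r alone among them turned. The difference of the Selp differences between the stages was -1.12 ± 1.14 for Elane, -0.79 ± 1.31 for Mpo and -0.26 ± 0.18 for Prtn3. EdgeR called 0 of 16878 genes for it, or 0%, with 873 genes at an unadjusted p under 0.05 and 11 called by DESeq2.

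**Figure D4:**
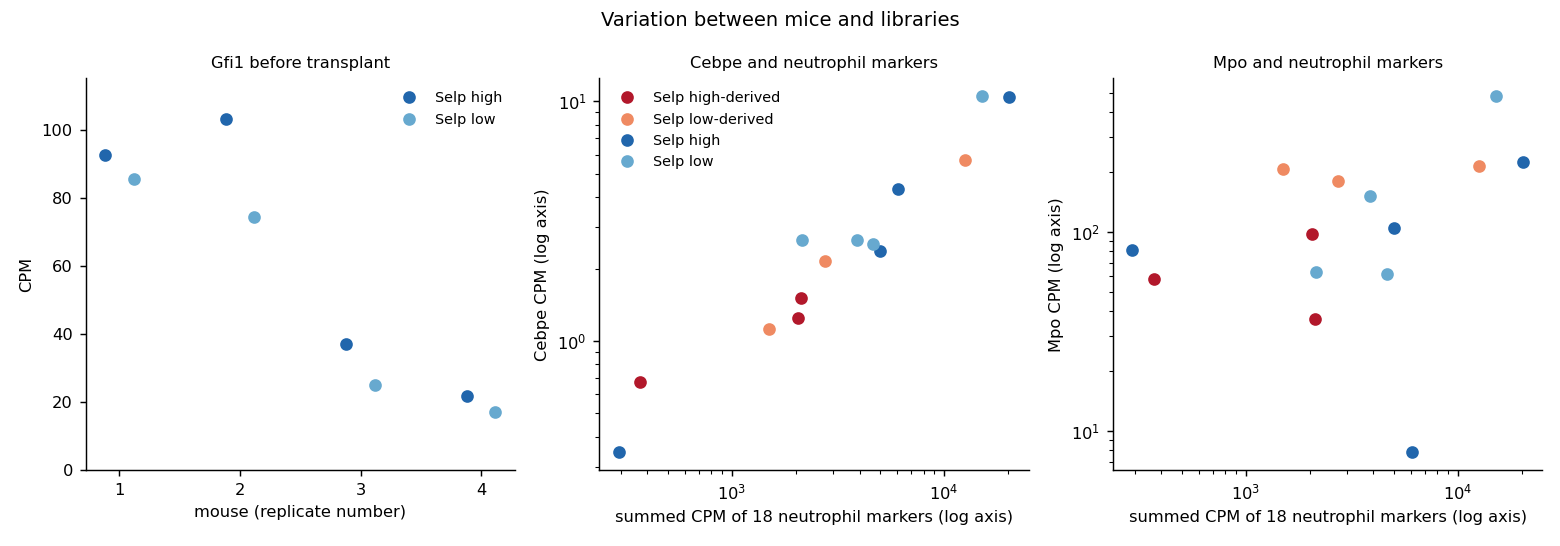
Left, Gfi1 in CPM in both fractions of each replicate number, taken as a mouse, before transplantation. Middle and right, Cebpe and Mpo in CPM against the summed CPM of 18 neutrophil markers in the 14 libraries, on log axes. Gfi1 is high in mice 1 and 2, and low in mice 3 and 4, in both fractions. Cebpe is lowest where the marker sum is 293 CPM and highest where it is 15144 and 20266 CPM. Mpo is also highest at the largest sums, with 479 CPM at 15144, 223 CPM at 20266 and 213 CPM at 12566 CPM. Elsewhere Mpo is scattered, with 206 CPM at a sum of 1496 CPM and its lowest level (7.81 CPM) at 6093 CPM.

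Within groups, the 10 genes fell into different company. Deviations of log2 CPM from the group means were correlated over the 14 libraries, as a description that shares libraries and depth and has no test. Spi1, Cebpe and Csf1r deviated together (Pearson r of 0.90 for Spi1 with Cebpe, 0.90 for Spi1 with Csf1r and 0.79 for Cebpe with Csf1r), and Cebpa joined Irf8 (0.87) and Csf1r (0.86). Mpo went with Elane (0.86) and hardly with Cebpe (0.22), Spi1 (0.08) or Prtn3 (0.03). Gfi1 had a negative r with Mpo (-0.63), with Elane (-0.54) and with Cebpe (-0.53).

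Among other protein-coding genes, the one most like Mpo was Ctsg, the primary granule protease cathepsin G (r = 0.99), followed by Cst7 (0.92) and Gen1 (0.90). The gene most like Cebpe was Camp, the secondary granule peptide cathelicidin (0.98), followed by Ltb4r1 and Aldh3b1 (0.98 each). Ctsg also came close to Elane (0.90), whose nearest gene was Kntc1, of the kinetochore (0.93), with Polq, a DNA polymerase gene, at 0.90. Csf1r came close to Nfam1 (0.96) and Ccr2, the chemokine receptor of inflammatory monocytes (0.96). Irf8 was nearest to Pstpip2 (0.98), then to the erythrocyte membrane genes Rhag (0.94) and Epb42 (0.93). Spi1 was nearest to Sema4a, Ifi27l2a and Nfam1 (0.96 each), and Cebpa to Ifi27l2a, Padi2 and Themis2 (0.90 each). Csf3r was nearest to Efl1 and Pex3 (0.92 each) and Rnf149 (0.90), and Prtn3 to Mpp1 (0.94), Sdc2 (0.93) and Mapre3 (0.92). Gfi1 was nearest to Zfp467 (0.98), Ltb, the lymphotoxin beta gene (0.97), and Nek6 (0.96).

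Other genes of the pathway were described by list, for the comparison of the stages. Between the stages 27.5% of all genes were called, 13% higher and 14.5% lower, with a median of -0.01, and the list counts stand beside these shares. Of 20 other myeloid regulators 3 were higher and 10 lower after transplantation, with a median of -0.33. The related C/EBP genes were among them. Cebpb, the C/EBP of emergency granulopoiesis, averaged 68.7 ± 21.9 CPM after and 365 ± 110 CPM before transplantation (SD, n = 6 and 8), a log2 change of -2.39 ± 0.19 (edgeR adjusted p = 1.66e-06). Cebpd averaged 12.9 ± 6.23 CPM after and 44.6 ± 6.56 CPM before (-1.84 ± 0.19, edgeR adjusted p = 1.05e-05). Trib1, a pseudokinase gene whose product directs C/EBP-alpha to degradation, had -2.92 ± 0.30 (edgeR adjusted p = 2.29e-05). Egr1, an immediate early gene, had -4.38 ± 0.42 (edgeR adjusted p = 2.12e-05). The stages did not overlap for these 4 genes, but they were named for the smallest p between the stages in their list. The share of all genes that separate in this way was not counted, so the separation is a description only. Etv6, the other gene named for its level, was at 396 ± 26.9 CPM after and 403 ± 53.9 CPM before transplantation.

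Of 16 other cytokine receptors and ligands 11 were tested, 1 higher and 2 lower, a share near that of all genes. Flt3, the receptor of early multipotent and lymphoid progenitors, was higher (0.85 ± 0.23, edgeR adjusted p = 0.0126), and Csf1, the ligand of Csf1r, was lower (-0.61 ± 0.21, edgeR adjusted p = 0.0434). Kit had -0.04 ± 0.10 and its ligand gene Kitl -1.56 ± 0.60 (edgeR adjusted p = 0.0674). Csf2, Csf3, Il3, Il6 and Il34 were too low to be tested. With the counts before transplantation summed per mouse, 0 of this list were higher and 1 lower.

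The primary granule list, of 17 genes beside the 3 enzymes, had 2 higher and 4 lower, also not far from the share of all genes. Ctsc, the cathepsin that activates the granule serine proteases, fell to 245 ± 29.3 CPM after transplantation, against 486 ± 63.9 CPM before (SD, n = 6 and 8), a log2 change of -0.98 ± 0.09 (edgeR adjusted p = 4.06e-06). Cd63, a membrane protein of these granules, had -0.72 ± 0.08 (edgeR adjusted p = 1.81e-05). Nkg7 (1.76 ± 0.32, edgeR adjusted p = 0.00124), also known from the granules of natural killer cells, and Plac8 (1.13 ± 0.26, adjusted p = 0.00507) were higher. Lyz2 (-0.46 ± 0.35) and Calr (-0.21 ± 0.10) did not pass.

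Of 14 secondary and tertiary granule genes tested of 15, with Bpi too low, 0 were called in either direction, although all 14 values were below 0, with a median of -1.24. Their levels differed widely between libraries. Ltf, lactoferrin, was at 27.2 to 1218 CPM after and 46.2 to 2240 CPM before transplantation, and Ngp at 89.8 to 2754 and 81.6 to 4909 CPM. Orm1 (-2.02 ± 0.84), Pglyrp1 (-1.21 ± 0.50), Chil3 (-1.59 ± 0.86) and Cd177 (-1.20 ± 0.73) had edgeR adjusted p of 0.0898 to 0.254. Several of these genes also stand in the neutrophil marker list.

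**Figure D5:**
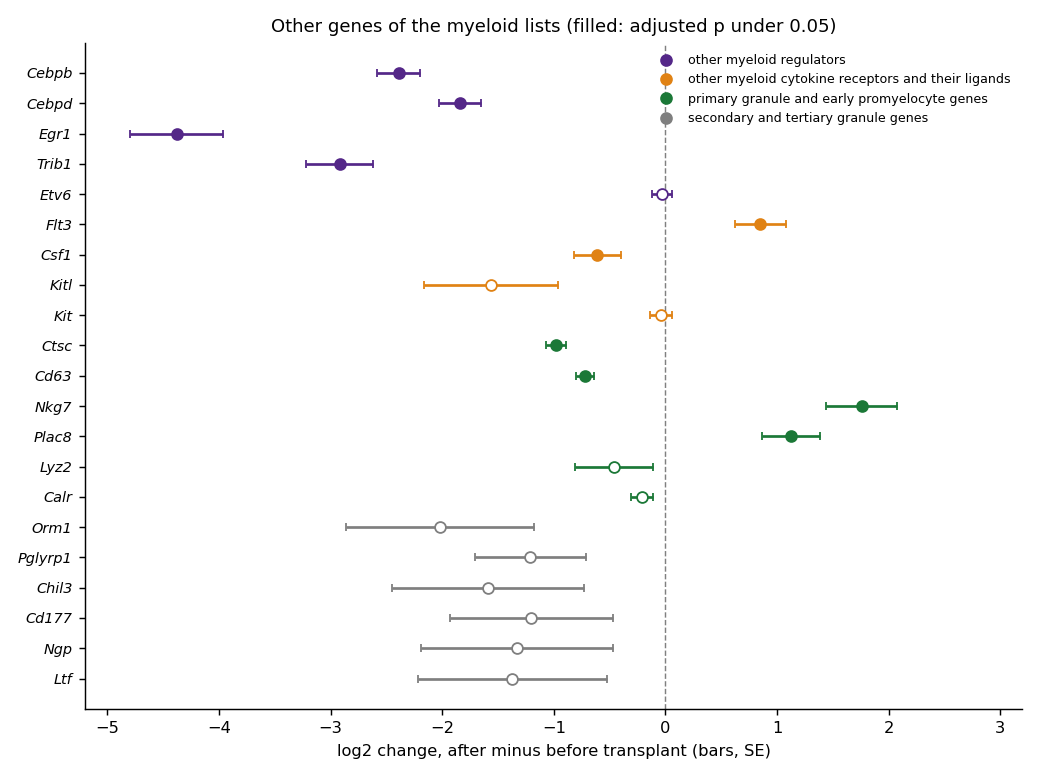
Log2 change between the stages (after minus before transplantation) of the named genes of 4 lists, with bars for the SE and filled points at an edgeR adjusted p under 0.05. The 4 regulators from Cebpb to Trib1 lie at -1.84 or below with short bars, and the 6 secondary and tertiary granule genes have long bars and open points.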

How the data were processed

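The deposited files hold whole-number read counts per gene, made by the authors. The submitters' processing notes name STAR 2.7.0d, Picard 2.23.0 and FastQC 0.11.9, and the build GRCm38. Per the labels' protocols, cDNA came from poly(A) RNA and libraries from tagmentation. The annotation release and options for counting were not given in the sources used here. Unstranded counts were taken, since the sums of both strand columns were nearly equal (ratio 0.989 to 0.999). Unmapped, multimapping, unassigned and ambiguous reads (3.35 to 5.06%, 9.93 to 13.4%, 3.37 to 5.13% and 4.2 to 4.79%) stayed out.

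All 55450 identifiers matched GENCODE mouse release 21, used for symbols, GRCm38 positions and exon lengths. Counts were fitted with edgeR 4.0.16 in R 4.3.3 (TMM factors 0.963 to 1.042, expression filter with a minimum count of 10, 4 group means over 14 libraries, 10 residual degrees of freedom, biological coefficient of variation 0.322), with Benjamini-Hochberg adjustment over 16878 genes. Intervals use the t distribution of the fit. DESeq2 1.42.0, limma voom 3.58.1, other scaling, no filter, summed strand counts, a replicate block, each library left out, the libraries of a stage alone, and mouse 4 left out were alternatives. Summing counts per mouse was added after seeing the data, as were list counts without mouse 4.

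Before transplantation, libraries with the same replicate number deviated together across genes (r of 0.29 to 0.53, others at most 0.05). After transplantation they did not (r of -0.05 to 0.02). Each number before transplantation was therefore taken as 1 mouse, which the labels do not state. A shared mouse and shared handling cannot be told apart in this way. No pair of libraries looked like a duplicate. The labels do not tie the later libraries to single recipients, so p-values measure the spread between libraries. The comparison of the stages also takes the 2 libraries of each donor mouse as separate, except where counts were summed per mouse. Named genes are all 10 members and, per list, up to 4 with the smallest p between the stages and the 2 of highest level. For likeness, the 3 nearest protein-coding genes averaging 1 or more in log2 CPM were taken. A few genes that these rules name are not reported here. The members, lists and tests were chosen with earlier results of these data known.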

Additional observations from a re-analysis of the deposited data

Results flagged for a closer look

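Cebpe in Selp low replicate 4 was at 10.5 CPM, far from the 2.55 to 2.65 CPM of the other 3 Selp low libraries. The gap made up 0.987 of the range of the group, above the critical value of 0.829 for 4 samples. The Selp high library of the same mouse was at 10.4 CPM, and both had the highest sums of neutrophil markers before transplantation (20266 CPM for Selp high and 15144 CPM for Selp low replicate 4). The part of neutrophil transcripts in this level was not tested. The groups of 4 gave 20 such tests for the 10 genes, and chance alone flags about 1 in 20.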

How the results depend on the processing

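Of 944 values of the 10 genes under 26 alternative settings, 891 kept their direction and their side of the threshold, 30 changed sign, 17 lost and 6 gained a call. Prtn3 between the stages had an adjusted p of at most 4.16e-05 under every one. Under DESeq2, genes called were 11 (Selp high against Selp low), 25 (Selp high-derived against Selp low-derived) and 11 (the difference of these), against 0 by edgeR. With the replicate block fitted on the libraries before transplantation they were 4 before, and with the block fitted on all libraries 0 before and 2 after transplantation. Without mouse 4 they were 1 after. Neither block fit called any of the 10 genes. Leaving out 1 library gave 0 to 2 genes called before transplantation. Between the stages it gave 2 to 5 of the 10 genes called, 5 without Selp high replicate 1. For the Selp low input it gave 866 (without Selp low-derived replicate 1) to 2744 genes and 1 to 2 of the 10, and for the Selp high input 1464 (without Selp high-derived replicate 3) to 2852 genes and 1 to 2 of the 10. Without mouse 4, 3015 genes were called for the Selp low input, and 2 of the 10 for the Selp high input.

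Signs that turned belong to values that were never called. Without mouse 4, also when Selp low-derived replicate 2 was left out too, Csf1r was 0.12 between Selp high and Selp low. Between the stages without mouse 4, Csf1r was 0.25, Mpo 0.56 and Elane 0.25, and with that library left out as well 0.25, 0.53 and 0.20. Gfi1 between Selp high-derived and Selp low-derived was 0.02 there. By limma voom the stage changes of Gfi1, Csf1r and Mpo were 0.15, 0.20 and 0.29. Leaving out each library gave, before transplantation, -0.97 to 0.74 for Cebpe, -0.80 to 0.17 for Irf8, -1.08 to 0.42 for Csf1r, -1.55 to 0.19 for Mpo and -1.46 to 0.18 for Elane. It gave -0.36 to 0.05 for Gfi1 after transplantation, and between the stages -0.21 to 0.12 for Gfi1, -0.63 to 0.10 for Csf1r and -0.54 to 0.21 for Mpo.

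Of the lists, receptors and ligands had 0 higher and 1 lower with counts summed per mouse, the primary granule list had 4 higher without mouse 4 and also without Selp low-derived replicate 2 as well, and the secondary and tertiary granule list had 1 lower without these 3 libraries. The causes were not tested. Depth limits Cebpa and Cebpe, whose lowest libraries had 9 reads each.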
